A study of Mus musculus with 96 samples.

Results

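Levels of the genes of glycolysis, of glucose and lactate transport and of the response to hypoxia were examined in mouse bone marrow-derived macrophages given lipopolysaccharide (LPS, a bacterial cell wall component) together with 1 of 10 compounds. The list holds 34 genes, chosen by name as glycolytic enzymes, transporters and targets or regulators of the transcription factor HIF-1. All 34 are among the 23481 gene symbols of the count table, and 25 of them had enough counts to be among the 4963 genes tested. Cells came from male C57BL/6 mice, 8 weeks old, and were grown in conditioned medium containing MCSF. There were 12 groups of 8 wells, 4 wells on each of 2 plates. NoStim wells got no LPS. DMSO wells got the vehicle 30 min before LPS, and the other groups, Baflo, BrefA, Caspase-1, Dexa, Halofuginone, pGE2, tBHQ, Torin, Tunicamycin and ZVAD, got the compound of that name 30 min before LPS. LPS-treated wells were lysed 4 h after LPS. The sources used here give no doses, no compound was given without LPS, and no vehicle is stated for NoStim. Nothing in the labels says that wells were separate cultures, so p-values measure the spread between wells, which may be technical.

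Glycolysis turns glucose into pyruvate in the cytosol, and lactate dehydrogenase then turns pyruvate into lactate, which leaves the cell through monocarboxylate transporters. HIF-1 is a transcription factor whose alpha subunit is destroyed when oxygen is plentiful, after prolyl hydroxylases have marked it. When the subunit builds up, HIF-1 binds short DNA elements with the core ACGTG or GCGTG and raises transcription of glycolytic enzymes, glucose transporters and genes such as Vegfa. Macrophages sensing LPS are known to take up more glucose and to make HIF-1 alpha also when oxygen is present.

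The HIF-1 core was looked for in promoters, to show the DNA of the genes that changed most. RefSeq promoter windows (GRCm38.p6) were found for 30 of the 34 genes, and for 22 of the 25 tested, and the 250 bases before each start site were searched for ACGTG and GCGTG on both strands. At least 1 match lay in 25 of the 32 windows of the tested genes of the list (78.1%), in 57.4% of the 4856 windows of all tested genes and in 38.6% of all 32851 windows. The ACGTG form lay in 17 of the 32 windows (53.1%), against 22.9% and 16.6%. The list was chosen partly for HIF-1 targets, so its higher share is no separate support. Some genes have several windows, and a match describes letters, not binding. The sequences below, 5′ to 3′ on the gene's strand up to the first annotated exon base, belong to the hexokinase and transporter genes that moved most with LPS and tBHQ and to the HIF-1 target genes with the highest fold changes in pGE2 wells. Capitals mark matches on either strand (CACGT and CACGC are ACGTG and GCGTG read on the other strand).
Hk2 (chr6:82774455-82774704, - strand): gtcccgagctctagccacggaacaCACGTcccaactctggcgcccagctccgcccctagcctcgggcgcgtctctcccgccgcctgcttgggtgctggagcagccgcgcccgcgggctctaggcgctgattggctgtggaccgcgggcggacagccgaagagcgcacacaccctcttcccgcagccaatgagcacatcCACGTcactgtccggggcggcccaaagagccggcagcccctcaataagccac
Slc2a6 (chr2:27027999-27028248, - strand): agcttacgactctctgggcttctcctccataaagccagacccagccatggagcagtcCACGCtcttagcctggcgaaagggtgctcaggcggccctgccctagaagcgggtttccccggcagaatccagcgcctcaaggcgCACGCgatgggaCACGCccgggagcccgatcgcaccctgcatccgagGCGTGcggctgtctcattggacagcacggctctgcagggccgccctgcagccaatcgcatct
Ddit4 (chr10:59951835-59952020, - strand): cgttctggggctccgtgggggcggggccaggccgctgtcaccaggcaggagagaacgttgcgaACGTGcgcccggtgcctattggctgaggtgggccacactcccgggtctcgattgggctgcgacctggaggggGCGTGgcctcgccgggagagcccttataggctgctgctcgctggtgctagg
Hilpda (chr6:29272238-29272487, + strand): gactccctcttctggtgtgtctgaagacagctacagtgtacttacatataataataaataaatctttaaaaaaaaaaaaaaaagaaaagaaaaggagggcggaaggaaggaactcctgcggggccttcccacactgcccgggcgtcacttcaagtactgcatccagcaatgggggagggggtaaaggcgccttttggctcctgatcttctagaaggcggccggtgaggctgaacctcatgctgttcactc
Hk2 showed 2 matches, both of the ACGTG form, Slc2a6 showed 4, all GCGTG, and Ddit4 1 of each form. The Hilpda window printed here held 0 matches, while the other RefSeq window of that gene held 3.

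Total counts per library ranged from 80196 to 379198 (median 257984). Halofuginone libraries were the shallowest, with a median total of 96553 against 264282 for DMSO, and Rn45s, the ribosomal RNA precursor, took 44.7% ± 3.20 of their counts (SD, n = 8) against 19.4% ± 4.64 in DMSO. All 9 macrophage markers in the table had counts, but 1 of them, Mertk, had only 51 over all libraries. Cd3e, Cd3g (T cells), Pax5 (B cells), Elane, Mpo (neutrophils), Hba-a1 and Hbb-b1 (erythroid cells) had 0. Other genes of those lists had few counts over all libraries: Cd3d 31, Cd79b 7, S100a8 78, S100a9 13 and Klf1 2. The endothelial marker Kdr had 192 and the fibroblast marker Col1a2 had 33. Of the dendritic cell markers, Xcr1 had 507 counts over all libraries and Flt3 had 1. Library Tunicamycin plate 2 F stood apart from its group, and results that depend on it are given with and without it. Levels are counts per 1000000 of the TMM-scaled library total (CPM), given as the range over the 8 wells of a group with the median. Fold changes are log2 ± standard error of edgeR's quasi-likelihood fit to all 96 libraries, with p-values adjusted by Benjamini and Hochberg over all 4963 genes, and a gene "rose" or "fell" where the adjusted p was under 0.05. Wells carry letters, A to D in NoStim and E to H in the other groups, and "without E" means that the E wells of both plates were left out. All compounds were compared with the same DMSO wells, so their fold changes are not independent. In these bulk samples, fewer cells of a type and less RNA per cell cannot be told apart.

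**Figure D1:**
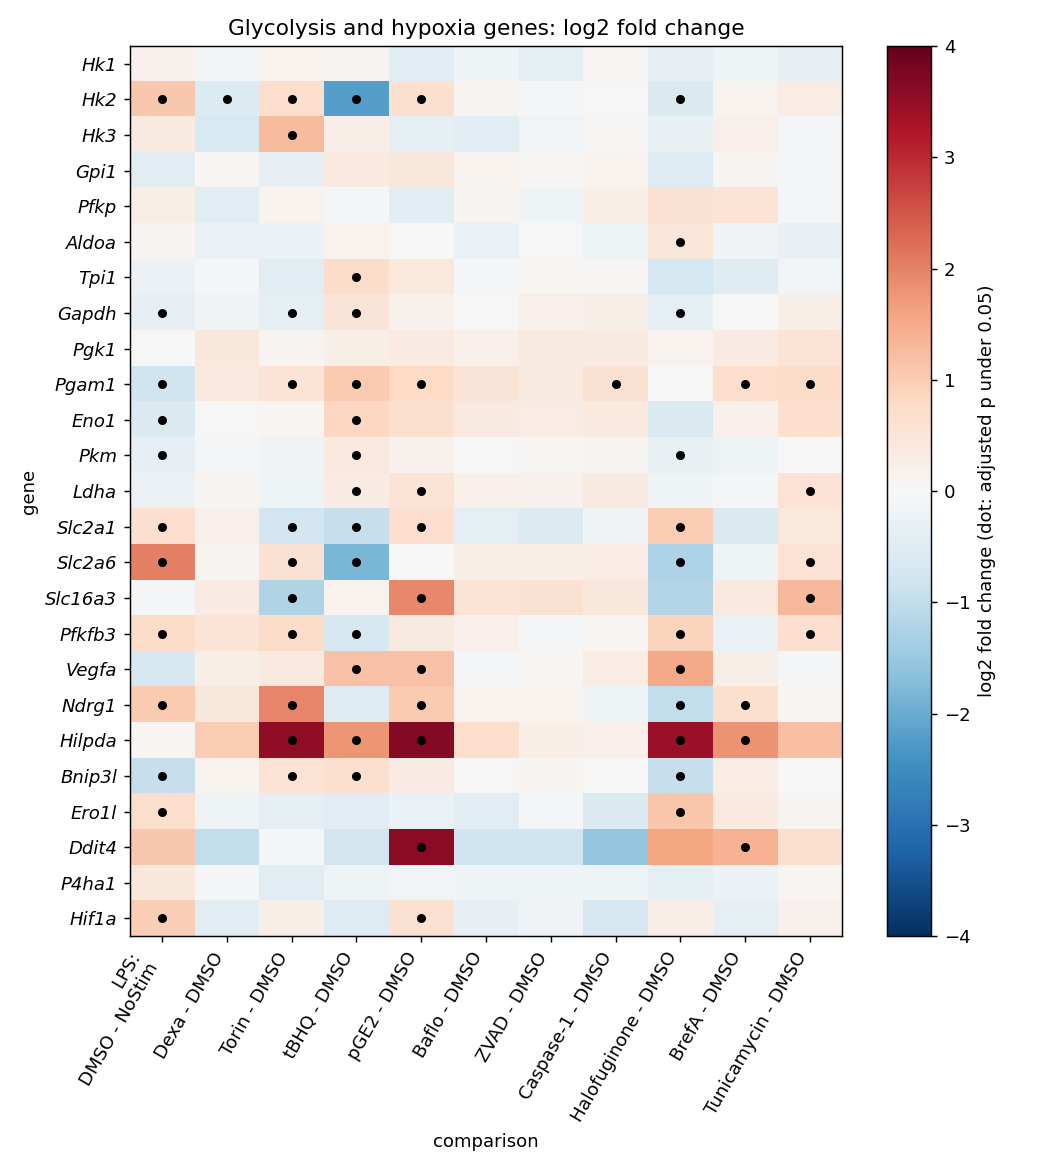
Heatmap of log2 fold change (colour) for the 25 tested genes in rows and 11 comparisons in columns, DMSO against NoStim first and then each compound against DMSO, with black dots at an adjusted p under 0.05. The darkest cells are those of Hilpda in Torin, pGE2 and Halofuginone and of Ddit4 in pGE2, and the Baflo and ZVAD columns hold no dot.

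LPS itself, compared as DMSO against NoStim wells, went with more transcripts of the glucose transporter Slc2a6 and the hexokinase Hk2. Transcripts of 4 enzymes of the later steps of glycolysis were fewer, but of these only Pgam1 kept its call with same-named wells summed. Of the 25 tested genes 7 rose and 5 fell (12 of 25, 48%), where 36.1% of all tested genes changed, and the median was 0.11 against -0.0362 for all tested genes. Slc2a6, a glucose transporter of the GLUT family (chr2:27021363-27027998, - strand of mm10, GENCODE M21), stood at 3.26 to 64.2 (median 30.9) CPM in NoStim and 98.2 to 170.4 (median 122) in DMSO. The groups did not overlap, and the gene rose by 2.01 ± 0.22 (adjusted p = 1.25e-14), about 4.03-fold. Hk2, the inducible hexokinase that traps glucose in the cell (chr6:82725025-82774454, - strand), was at 121 to 198 (median 156) CPM in NoStim and 250.3 to 378 (median 330.0) in DMSO. Every DMSO well was above every NoStim well (1.08 ± 0.14, adjusted p = 1.16e-10). The main glucose transporter gene Slc2a1 (0.66 ± 0.24, adjusted p = 0.0244) and Pfkfb3, whose enzyme makes the activator of phosphofructokinase (0.73 ± 0.20, adjusted p = 0.00214), also rose. The Slc2a1 call was lost in 8 of 19 other settings, plate 1 alone among them, with fold changes from 0.138 to 1.13. Hif1a, the gene of the HIF-1 alpha subunit, was at 18.2 to 109 (median 43.7) CPM in NoStim and 70.4 to 144 (median 103) in DMSO and rose by 0.97 ± 0.24, adjusted p = 0.000674, with overlapping groups. Among the HIF-1 target genes, Ndrg1 (1.04 ± 0.23, adjusted p = 8.15e-05) and the oxidase gene of the endoplasmic reticulum Ero1l (0.72 ± 0.27, adjusted p = 0.0301) rose.

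In the later steps of the pathway, 0 of 6 tested enzyme genes rose and 4 fell after LPS. Of all tested genes 19.5% rose and 16.6% fell, and with only 6 genes the count is a description. Pgam1, phosphoglycerate mutase, was at 84.6 to 191 (median 136) CPM in NoStim and 62.8 to 94.7 (median 79.5) in DMSO, with little overlap (-0.79 ± 0.18, adjusted p = 0.00011). The enolase gene Eno1 fell by 0.59 ± 0.23 (adjusted p = 0.031). Pkm, pyruvate kinase, was at 592 to 693 (median 639) CPM in NoStim and 458 to 575 (median 510.1) in DMSO, a small shift without overlap (-0.32 ± 0.10, adjusted p = 0.00766), and Gapdh was lower too (-0.32 ± 0.11, adjusted p = 0.0176). Among the tested genes of the list the largest fall was in Bnip3l, a mitophagy receptor gene and HIF-1 target (-0.91 ± 0.18, adjusted p = 5.96e-06). Ldha (-0.23 ± 0.13, adjusted p = 0.159), Vegfa (-0.65 ± 0.32, adjusted p = 0.102), Hilpda (0.06 ± 0.51, adjusted p = 0.936) and Slc16a3, the lactate exporter gene (-0.06 ± 0.32, adjusted p = 0.916), did not pass the test. Scaling by RLE in place of TMM moved the median of all genes from -0.036 to -0.187, the share of higher among all calls from 54.1% to 38.4%, and the list's count to 5 higher and 8 lower. Slc2a1 and Ero1l were no longer called under RLE or in DESeq2. Gapdh, Eno1, Pkm and Slc2a1 were no longer called with same-named wells summed, nor were Gapdh without E, Eno1 without A, C, E, F or H, Slc2a1 without A, B, G or H and Ero1l without A, B, E, F or H. Processed pseudogenes exist for Gapdh, Pgk1, Ldha, Eno1 and Tpi1, so counts of these genes are uncertain where the authors' counting split or dropped shared reads.

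The tBHQ wells, also given LPS, differed from DMSO wells in the opposite way for many of these genes. The list showed 9 genes higher and 4 lower (13 of 25, 52%), where 36.4% of all tested genes changed. Hk2 was at 27.1 to 111 (median 78.2) CPM in tBHQ, below every DMSO well (-2.20 ± 0.16, adjusted p = 2.49e-25). Slc2a6 was at 14.5 to 68.7 (median 33.1) CPM, also below every DMSO well (-1.82 ± 0.22, adjusted p = 1.78e-12). Slc2a1 (-0.93 ± 0.26, adjusted p = 0.00206) and Pfkfb3 (-0.63 ± 0.20, adjusted p = 0.00961) fell. These are 4 of the 7 genes that were higher in DMSO than in NoStim, but both comparisons use the same DMSO wells. Of the 6 lower glycolysis enzyme genes 5 rose, where 17.3% of all tested genes rose. Pgam1 was at 120.2 to 219 (median 160.4) CPM in tBHQ, above every DMSO well (1.04 ± 0.18, adjusted p = 2.98e-07). Eno1 (0.83 ± 0.23, adjusted p = 0.00168), Gapdh (0.51 ± 0.11, adjusted p = 8.24e-05), Pkm (0.39 ± 0.10, adjusted p = 0.0013) and Ldha (0.33 ± 0.13, adjusted p = 0.0365) had smaller changes, and Tpi1, triosephosphate isomerase, rose as well (0.73 ± 0.19, adjusted p = 0.00111). Of the HIF-1 target genes, the lipid droplet protein gene Hilpda (1.77 ± 0.41, adjusted p = 0.000159), the angiogenic factor gene Vegfa (1.17 ± 0.31, adjusted p = 0.00112) and Bnip3l (0.65 ± 0.18, adjusted p = 0.00218) rose.

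**Figure D2:**
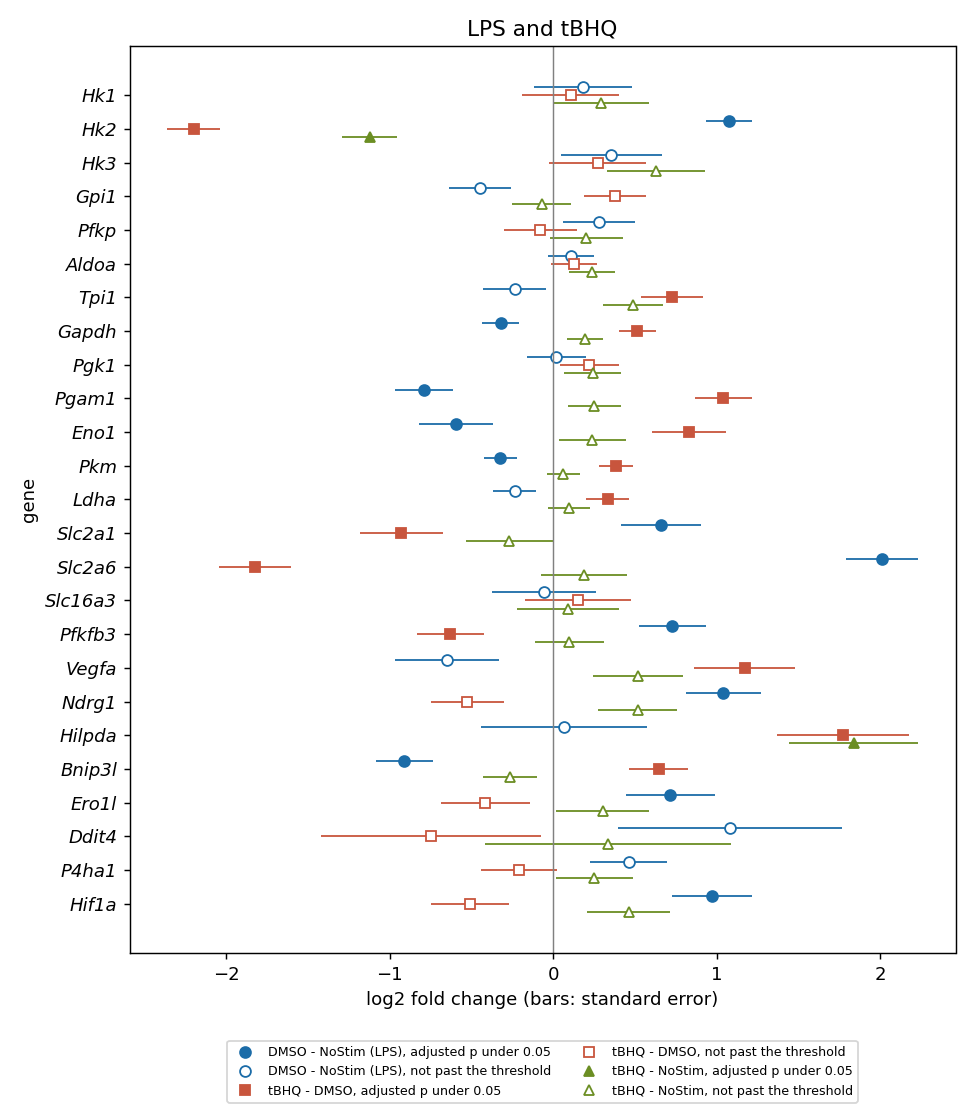
Log2 fold change with standard error (horizontal axis) of each tested gene (vertical axis) for DMSO against NoStim, tBHQ against DMSO and tBHQ against NoStim, with filled symbols at an adjusted p under 0.05. Hk2 passes the threshold in all 3, above 0 with LPS and below 0 in both tBHQ comparisons, and the comparisons share wells.

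Set against NoStim wells directly, tBHQ wells given LPS differed for 2 of 25 genes of the list (8%), where 8.3% of all tested genes differed. Hk2 was lower than in NoStim without overlap (-1.12 ± 0.17, adjusted p = 6.9e-08), and Hilpda, at 0 to 21.5 (median 6.75) CPM in NoStim and 7.76 to 45.2 (median 30.6) in tBHQ, was higher with overlap (1.84 ± 0.39, adjusted p = 0.000263). Slc2a6 (0.19 ± 0.26, adjusted p = 0.768) and Pgam1 (0.25 ± 0.16, adjusted p = 0.423) did not pass the test, which does not show that they were equal. With RLE scaling the median of all genes in tBHQ against DMSO moved from 0.044 to 0.188, the share of higher among all calls from 47.5% to 61.9%, and the list showed 10 higher and 4 lower. In tBHQ against DMSO, Hk2, Gapdh, Pgam1, Eno1, Slc2a1, Slc2a6, Vegfa, Hilpda and Bnip3l kept the call with wells summed, RLE scaling, DESeq2 and each well letter left out. Pkm and Ldha were no longer called with same-named wells summed, nor were Tpi1 without F, Ldha without E, F or G and Pfkfb3 without F, G or H.

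In pGE2 wells 10 of 25 tested genes rose (40%) and 0 fell against DMSO, where 11.2% of all tested genes changed. One of them, Ddit4, was tested because it was high in these wells, which leaves 9 others. The list's median was 0.43, against 0.00281 for all tested genes. Ddit4, an inhibitor of the mTORC1 growth pathway and a HIF-1 target (chr10:59949669-59951834, - strand), was at 0 to 11.1 (median 6.17) CPM in DMSO and 48.1 to 97.9 (median 77.8) in pGE2, without overlap (3.60 ± 0.39, adjusted p = 3.49e-14). It reached the filter's level in 4 or more wells of pGE2 alone, so its values are a description. Hilpda (chr6:29272488-29275446, + strand), whose promoter is printed above, went from 0 to 16.0 (median 9.65) CPM in DMSO to 78.5 to 139 (median 106) in pGE2, without overlap (3.67 ± 0.33, adjusted p = 1.08e-18). It passed the filter through 4 groups, Torin, tBHQ, pGE2 and Halofuginone. Slc16a3, the lactate exporter (chr11:120948480-120960868, + strand), was at 7.01 to 53.1 (median 21.3) CPM in DMSO and 61.7 to 154 (median 97.5) in pGE2, all wells higher (1.91 ± 0.27, adjusted p = 2.27e-09).

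The other genes that rose in pGE2 wells belong to several steps of the pathway. Ldha was at 154 to 275 (median 243) CPM in DMSO and 303 to 400.3 (median 343) in pGE2, without overlap (0.54 ± 0.13, adjusted p = 0.00108), and the DMSO value of plate 1 E was far below the others. Hk2 was higher in every pGE2 well, at 378 to 588 (median 521) CPM, with the lowest pGE2 well just above the highest DMSO well (0.65 ± 0.13, adjusted p = 6.06e-05). Slc2a1 (0.69 ± 0.22, adjusted p = 0.0244), Pgam1 (0.79 ± 0.18, adjusted p = 0.000439), Vegfa (1.17 ± 0.30, adjusted p = 0.00273), Ndrg1 (1.05 ± 0.19, adjusted p = 6.22e-06) and Hif1a (0.61 ± 0.22, adjusted p = 0.0472) rose with overlapping groups. Slc2a1 and Hif1a were no longer called with same-named wells summed, nor were Slc2a1 without E or F, Vegfa without H and Hif1a without E, F or G. Hk2, Pgam1, Ldha, Slc16a3, Ndrg1 and Hilpda kept the call in all of these and under RLE scaling and in DESeq2. Ddit4 did so too, but it was tested through pGE2 wells alone, so this is no support. The summed level of the 9 macrophage markers moved with the group, at 4463 to 5934 CPM in pGE2 wells against 2837 to 3669 in DMSO wells, and the median of the neutrophil list was 13.7 CPM against 4.21, with Elane and Mpo at 0. Their part in these results was not tested.

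**Figure D3:**
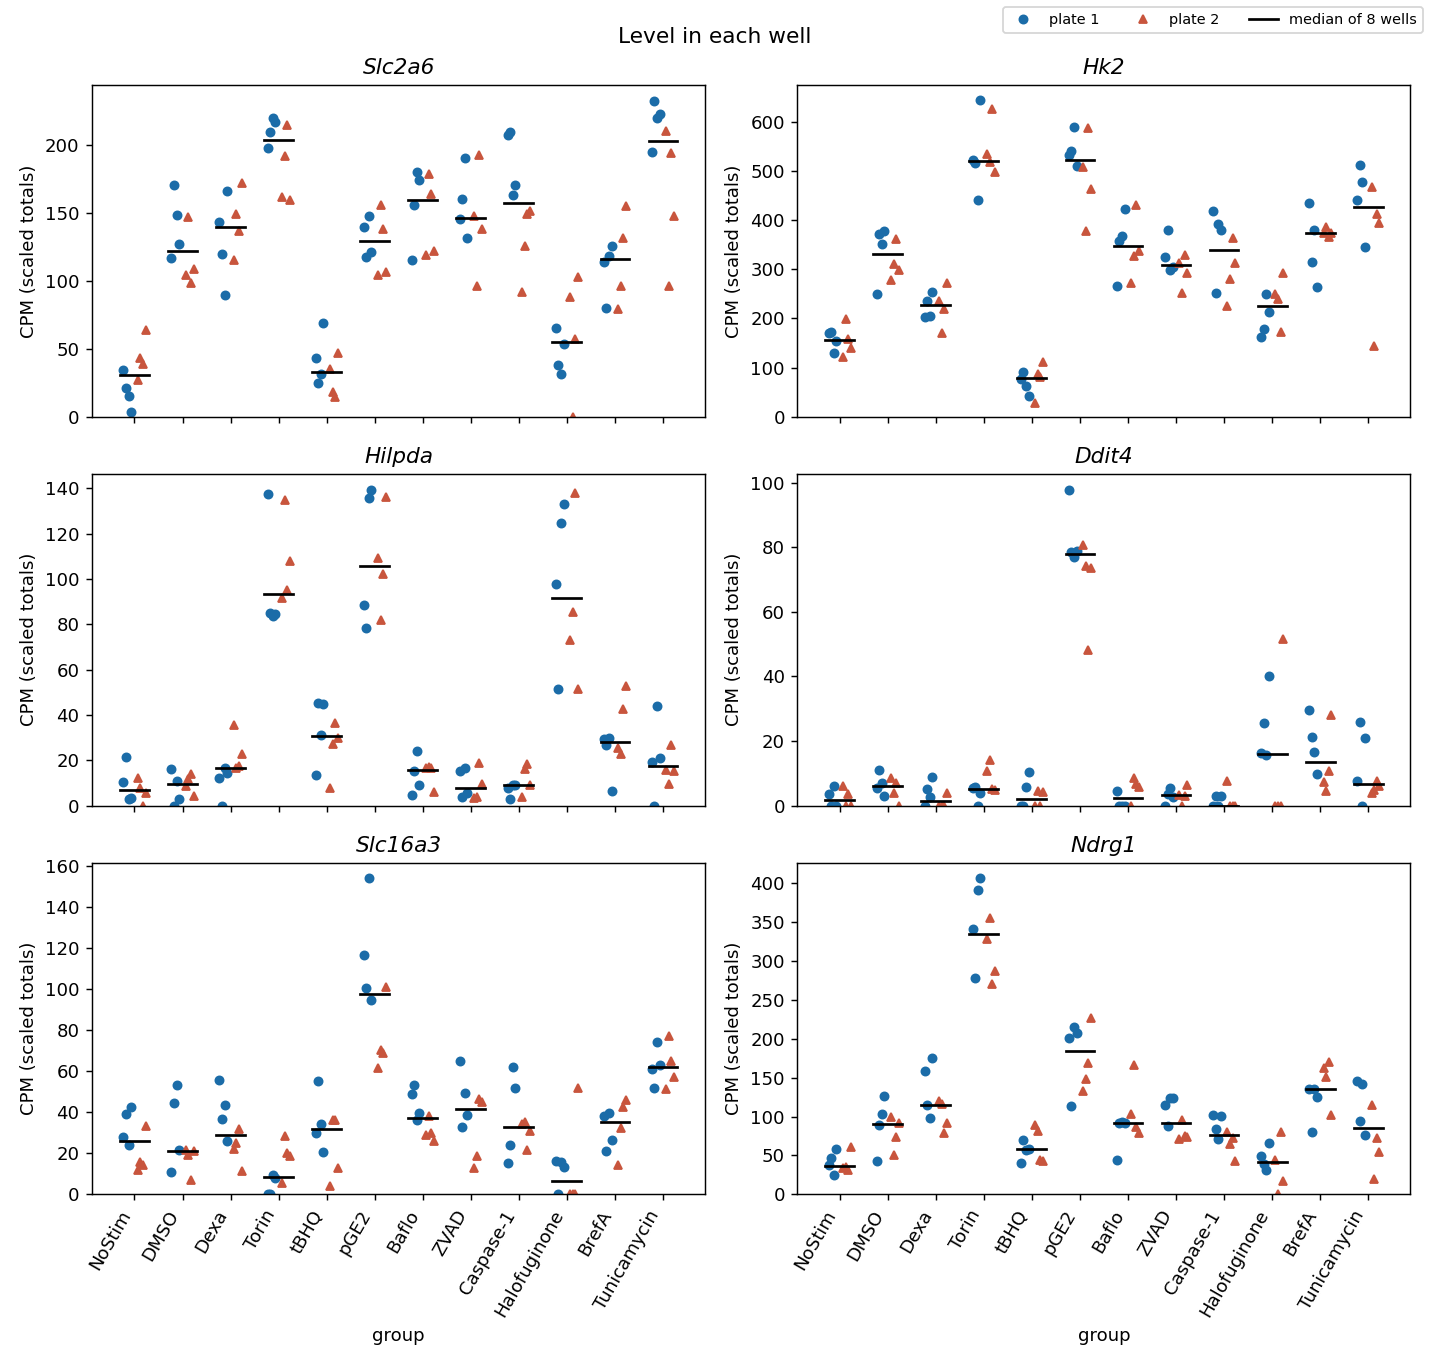
Level in each well (CPM on scaled totals, linear axis from 0) of 6 genes by group, with circles for plate 1, triangles for plate 2 and a bar at the median of the 8 wells. Ddit4 stands apart in pGE2 wells, Hilpda is high in Torin, pGE2 and Halofuginone wells, Ndrg1 is highest in Torin wells, and Hk2 and Slc2a6 are low in NoStim and tBHQ wells.

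Torin is the name of inhibitors of the mTOR kinase. Hilpda was high in Torin wells too, while Ddit4 did not pass the test there (-0.08 ± 0.65, adjusted p = 0.957). The list showed 8 genes higher and 3 lower than DMSO (11 of 25, 44%), where 16.7% of all tested genes changed. Hilpda was at 83.8 to 137 (median 93.2) CPM in Torin, above every DMSO well (3.55 ± 0.34, adjusted p = 1.14e-16). Ndrg1, a stress-responsive gene, went from 42.6 to 127 (median 90.5) CPM in DMSO to 269.8 to 406 (median 335) in Torin, without overlap (1.95 ± 0.19, adjusted p = 1.14e-16). Hk3, the hexokinase of myeloid cells, was at 27.1 to 43.4 (median 30.8) CPM in DMSO and 51.0 to 130.3 (median 71.4) in Torin, also without overlap (1.27 ± 0.28, adjusted p = 0.000173). Hk2, at 440.5 to 644 (median 520.1) CPM, was above every DMSO well (0.72 ± 0.13, adjusted p = 1.13e-05), and Pfkfb3 (0.73 ± 0.19, adjusted p = 0.00235), Slc2a6 (0.62 ± 0.18, adjusted p = 0.0075), Bnip3l (0.58 ± 0.19, adjusted p = 0.0171) and Pgam1 (0.56 ± 0.19, adjusted p = 0.0261) rose. Slc2a1 (-0.77 ± 0.26, adjusted p = 0.0295) and Gapdh (-0.35 ± 0.12, adjusted p = 0.0295) fell. Slc16a3 fell too (-1.19 ± 0.41, adjusted p = 0.031), but its fold change was -2.58 on plate 1 and 0.06 on plate 2. The summed macrophage markers were at 2333 to 2875 CPM in Torin wells, the highest of them just above the lowest DMSO well, and their part was not tested. Gapdh and Slc2a1 were no longer called with same-named wells summed, nor were Gapdh without F, G or H, Pgam1 without E, F or H, Slc2a1 without G or H, Slc2a6 without G, Slc16a3 without E, F or G and Bnip3l without E, F or G. Hk2, Hk3, Pfkfb3, Ndrg1 and Hilpda kept the call in all of these and under RLE scaling and in DESeq2.

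Torin and pGE2 wells were then compared with each other, a test that does not use DMSO wells. Of the tested genes 9 were higher in pGE2 and 3 higher in Torin (12 of 25, 48%), where 24.4% of all tested genes differed. The summed macrophage markers did not overlap between these groups either. Slc16a3, at 0 to 28.4 (median 8.67) CPM in Torin, was higher in every pGE2 well (3.10 ± 0.33, adjusted p = 1.3e-14). Slc2a1 was at 28.3 to 91.5 (median 58.6) CPM in Torin and 111 to 228 (median 146) in pGE2, without overlap (1.45 ± 0.25, adjusted p = 9.38e-07). Ldha (0.70 ± 0.13, adjusted p = 1.04e-05) and Tpi1 (0.85 ± 0.21, adjusted p = 0.000858) were higher in all pGE2 wells, and Gpi1, glucose-6-phosphate isomerase (0.78 ± 0.20, adjusted p = 0.0018), Gapdh (0.53 ± 0.12, adjusted p = 0.000179), Vegfa (0.77 ± 0.30, adjusted p = 0.0488) and Pkm (0.31 ± 0.10, adjusted p = 0.0204) were higher with overlap. Hk3 (-1.65 ± 0.28, adjusted p = 7.38e-07), Ndrg1 (-0.89 ± 0.17, adjusted p = 1.16e-05) and Slc2a6 (-0.61 ± 0.18, adjusted p = 0.00555) were lower in every pGE2 well. Hilpda (0.13 ± 0.23, adjusted p = 0.734) and Hk2 (-0.06 ± 0.13, adjusted p = 0.774) did not pass the test. Ddit4, which passed the filter through pGE2 wells alone and so had to be high there, was at 0 to 14.2 (median 5.25) CPM in Torin, below every pGE2 well, at a fold change of 3.69 ± 0.42 that is given as a description and is 1 of the 9 higher genes. Pkm and Vegfa were no longer called with same-named wells summed, nor were Pkm without F, G or H, Slc2a6 without H and Vegfa without F, G or H.

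**Figure D4:**
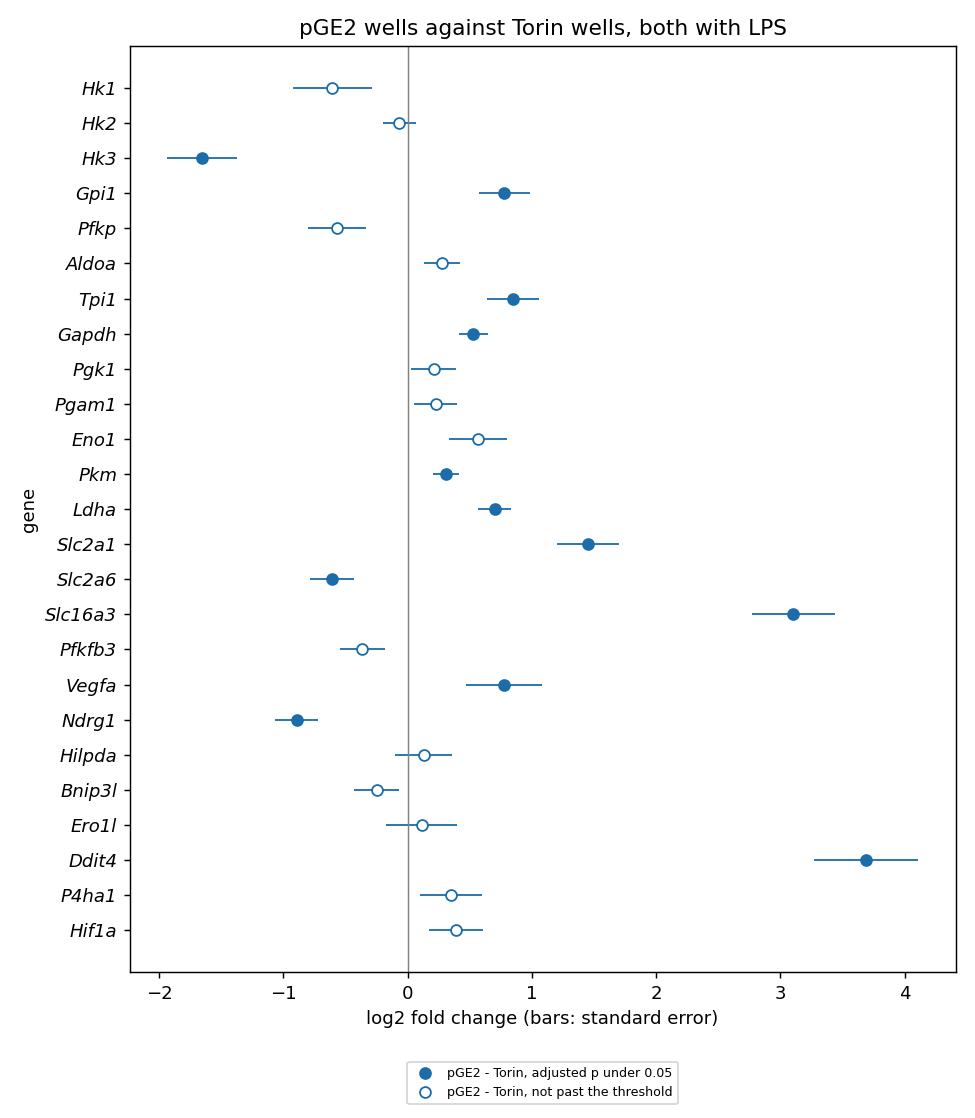
Log2 fold change of pGE2 against Torin wells with standard error (horizontal axis) for each tested gene (vertical axis), filled where the adjusted p was under 0.05. Slc16a3 lies at 3.10 and Hk3 is the lowest at -1.65. Ddit4, at 3.69, was tested through pGE2 wells alone.

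Halofuginone, an inhibitor of prolyl-tRNA synthetase, went with 6 genes higher and 6 lower (12 of 25, 48%), where 40.3% of all tested genes changed. The median of all genes was itself shifted, at -0.195, and the list's was -0.29. Hilpda was at 51.2 to 138 (median 91.4) CPM, above every DMSO well (3.47 ± 0.41, adjusted p = 1.2e-12). Vegfa was at 14.2 to 43.4 (median 25.8) CPM in DMSO and 43.9 to 103 (median 78.4) in Halofuginone, without overlap (1.53 ± 0.38, adjusted p = 0.000645). Ero1l went from 38.6 to 101 (median 68.7) CPM in DMSO to 65.0 to 264 (median 157), with overlap (1.11 ± 0.29, adjusted p = 0.0012). Slc2a1 (1.01 ± 0.26, adjusted p = 0.0011), Pfkfb3 (0.89 ± 0.22, adjusted p = 0.000501) and the aldolase gene Aldoa (0.48 ± 0.16, adjusted p = 0.0127) rose.

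The genes that fell in Halofuginone wells were Slc2a6 (-1.22 ± 0.28, adjusted p = 0.000218), Ndrg1 (-0.98 ± 0.33, adjusted p = 0.0118), Bnip3l (-0.92 ± 0.29, adjusted p = 0.00733), Hk2 (-0.58 ± 0.17, adjusted p = 0.00371), Gapdh (-0.39 ± 0.14, adjusted p = 0.0211) and Pkm (-0.29 ± 0.12, adjusted p = 0.0479). Ddit4, at 0 to 51.6 (median 15.9) CPM, did not pass (1.57 ± 0.68, adjusted p = 0.0544). With the Rn45s share as a covariate, which nearly coincides with this group, only 3 genes of the list passed, 1 higher and 2 lower. Hilpda stayed higher. Aldoa (-0.59, edgeR adjusted p = 0.0342) and Hif1a (-1.50, adjusted p = 0.000383) passed with the sign turned. The sign also turned for Hk2 (0.15), Pkm (0.13), Pfkfb3 (-0.28), Vegfa (-0.57) and Ero1l (-0.88), which did not pass. Depth and the Rn45s share moved with the group and cannot be told apart from the compound here. The summed macrophage markers were at 2010 to 3311 CPM in Halofuginone wells (median 2484) against 2837 to 3669 in DMSO, and their part was not tested. Gapdh and Pkm were no longer called with same-named wells summed, nor were Hk2 without G, Aldoa without E or G, Gapdh without F or G, Pkm without E, F or G, Slc2a1 without F, Ndrg1 without F or H and Bnip3l without G. Gapdh and Pkm were also lost under RLE scaling and in DESeq2.

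**Figure D5:**
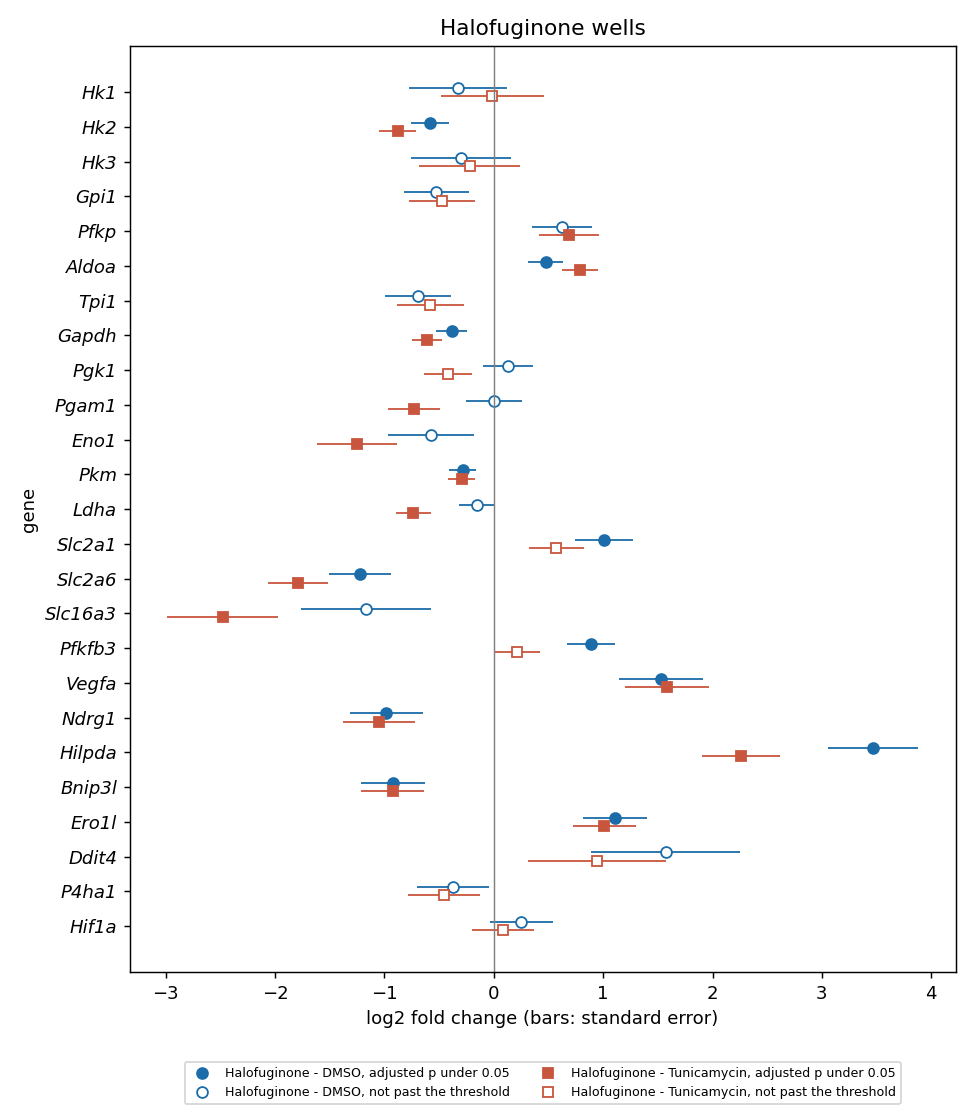
Log2 fold change with standard error (horizontal axis) of each tested gene (vertical axis) for Halofuginone against DMSO and against Tunicamycin, with filled symbols at an adjusted p under 0.05. Hilpda, at 3.47 and 2.26, is the highest in both, and both comparisons share the Halofuginone wells.

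Tunicamycin, which blocks N-linked glycosylation in the endoplasmic reticulum, and BrefA each went with a few higher genes of the list and 0 lower. In Tunicamycin wells 5 of 25 genes rose (20%), where 4.37% of all tested genes changed. Slc16a3 was at 51.5 to 76.9 (median 62.2) CPM (1.31 ± 0.28, adjusted p = 0.00125), and Pgam1, at 103 to 181 (median 129.5) CPM, was above every DMSO well (0.73 ± 0.18, adjusted p = 0.00614). Pfkfb3 (0.67 ± 0.19, adjusted p = 0.0188), Ldha (0.58 ± 0.13, adjusted p = 0.00216) and Slc2a6 (0.57 ± 0.18, adjusted p = 0.0429) rose with overlap. Ldha was spread widely in Tunicamycin wells, at 265 to 627 (median 291) CPM. Its fold change ranged from 0.106 to 0.998 over the other settings, and the call was lost on plate 2 alone. Without library plate 2 F, which stood apart, 8 genes passed: Hk2 (0.42, adjusted p = 0.0369), Pgk1 (0.62, adjusted p = 0.0216) and Eno1 (0.74, adjusted p = 0.0472) joined the others by edgeR's test. Pgam1, Ldha, Slc2a6, Slc16a3 and Pfkfb3 remained called. Slc2a6 and Pfkfb3 were no longer called with same-named wells summed, nor were Pgam1 without F or H, Ldha without H, Slc2a6 without E, G or H and Pfkfb3 without F, G or H.

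In BrefA wells 4 of 25 genes rose (16%), where 17.3% of all tested genes changed. Hilpda was at 6.60 to 52.8 (median 28.1) CPM (1.79 ± 0.41, adjusted p = 0.00028) and Ddit4 at 4.59 to 29.6 (median 13.6) CPM (1.38 ± 0.50, adjusted p = 0.0412), both overlapping with DMSO. Pgam1 (0.71 ± 0.18, adjusted p = 0.00169) and Ndrg1 (0.64 ± 0.20, adjusted p = 0.0127) rose as well. Ddit4 was no longer called with same-named wells summed, nor were Ndrg1 without E or G and Ddit4 without E, F, G or H. Against BrefA directly, Tunicamycin wells had 7 of 25 genes that differed (28%), 5 higher and 2 lower, where 16.9% of all tested genes differed. Slc16a3, at 14.5 to 45.8 (median 35.1) CPM in BrefA, was higher in every Tunicamycin well (0.92 ± 0.27, adjusted p = 0.00898). Slc2a1 (1.01 ± 0.24, adjusted p = 0.000656), Pfkfb3 (0.94 ± 0.19, adjusted p = 5.64e-05), Slc2a6 (0.73 ± 0.18, adjusted p = 0.000919) and Ldha (0.65 ± 0.13, adjusted p = 4.88e-05) were also higher, while Pfkp, the platelet-type phosphofructokinase (-0.62 ± 0.21, adjusted p = 0.027), and Ndrg1 (-0.57 ± 0.20, adjusted p = 0.0302) were lower. The Ldha fold change differed between plates, at 1.11 on plate 1 and 0.14 on plate 2. Pfkp and Ndrg1 were no longer called with same-named wells summed, nor were Pfkp without F, G or H, Slc2a1 without G and Ndrg1 without F, G or H. Without Tunicamycin plate 2 F, Pfkp (edgeR adjusted p = 0.0607) and Ndrg1 (adjusted p = 0.0848) did not pass.

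Halofuginone against Tunicamycin had 15 of 25 genes that differed (60%), 5 higher and 10 lower in Halofuginone, where 45% of all tested genes differed. Hilpda was higher in every Halofuginone well (2.26 ± 0.36, adjusted p = 3.9e-08), and Vegfa (1.58 ± 0.39, adjusted p = 0.000364), Ero1l (1.01 ± 0.29, adjusted p = 0.00272), Aldoa (0.79 ± 0.16, adjusted p = 3.1e-05) and Pfkp (0.69 ± 0.27, adjusted p = 0.0317) were higher with overlap. Slc16a3, at 0 to 51.6 (median 6.66) CPM in Halofuginone, had the lowest fold change (-2.48 ± 0.51, adjusted p = 2.04e-05). It rests on 6 counts in 4 of 8 Halofuginone wells, against 130 counts in Tunicamycin wells. With a well letter left out it ranged from -3.62 to -2.04. The other 9 lower genes ranged from -1.79 ± 0.27 (Slc2a6) to -0.29 ± 0.12 (Pkm) and included Hk2, Ldha, Pgam1, Eno1, Gapdh, Ndrg1 and Bnip3l. Pkm was no longer called with same-named wells summed, nor were Pfkp without G or H, Gapdh without F, Pgam1 without F, Eno1 without G, Pkm without E, F or G and Ndrg1 without E. Without Tunicamycin plate 2 F, Pfkp (edgeR adjusted p = 0.0526) and Pkm (adjusted p = 0.143) did not pass. The gap in depth and Rn45s share named above applies here as well. With the Rn45s share as a covariate 5 genes passed in place of 15, 1 higher and 4 lower. Hilpda and Slc2a6 kept the call. Ero1l (-1.15, edgeR adjusted p = 0.0293), Pfkfb3 (-1.06, adjusted p = 0.00557) and Hif1a (-1.81, adjusted p = 3.36e-05) passed with the sign turned. The fold change also turned sign for Aldoa (-0.37), Pkm (0.16) and Vegfa (-0.67), which did not pass.

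The 4 remaining compounds left nearly all of the list without a call. In Dexa wells 1 of 25 genes changed (4%), where 3.57% of all tested genes changed. It was Hk2, at 169.8 to 271 (median 226) CPM, which fell (-0.54 ± 0.14, adjusted p = 0.00695). The call was lost without F or G. In Caspase-1 wells 1 of 25 genes changed (4%), where 2.9% of all did, and it was Pgam1 (0.62 ± 0.18, adjusted p = 0.0355). This call was lost with same-named wells summed and without E, F, G or H. Baflo and ZVAD wells had 0 calls by edgeR, in the list and among all tested genes (0% and 0%), and DESeq2 made 0 calls in the list as well. At an unadjusted p under 0.05 the list had 1 gene in Baflo, Pgam1 (0.53 ± 0.18, adjusted p = 0.454), and 4 in ZVAD, Pgk1, Pgam1, Slc2a1 and Slc16a3 (adjusted p = 1 each).

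Read gene by gene over the 11 comparisons with LPS or DMSO, the members differed in how often they moved. Hk2 rose in 3 (LPS, Torin and pGE2) and fell in 3 (Dexa, tBHQ and Halofuginone). Its group medians ran from 78.2 CPM in tBHQ to 521 in pGE2, with Torin at 520.1. Pgam1 rose in 6 and fell in 1, with its lowest medians in Halofuginone (74.4 CPM) and DMSO (79.5 CPM). The DMSO level stands in each of those comparisons. Hk1, Gpi1, Pfkp, Pgk1 and P4ha1, a collagen prolyl hydroxylase gene, passed in 0 of the 11.

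The 9 genes of the list that were not tested had few counts. Over all 96 libraries they were Pfkl (533), Pdk1 (498), Egln1 (486), Bnip3 (424), Pfkfb4 (252), Bhlhe40 (225), Aldoc (81), Pfkm (69) and Egln3 (12), where Pfkl and Pfkm are phosphofructokinase genes and Egln1 and Egln3 encode HIF prolyl hydroxylases. In a fit without the filter (16022 genes, Benjamini-Hochberg over all of them), some passed in edgeR's test. Pfkfb4, a kin of Pfkfb3, had 62 counts in NoStim and 12 in DMSO wells and fell with LPS (-2.004 ± 0.47, adjusted p = 0.000337). Bhlhe40, a transcriptional repressor gene, had 10 counts in DMSO, 35 in Torin, 47 in BrefA and 14 in Halofuginone wells. It rose in Torin (2.001 ± 0.53, adjusted p = 0.00585), BrefA (2.10 ± 0.51, adjusted p = 0.00131) and Halofuginone (1.97 ± 0.64, adjusted p = 0.0186). The Halofuginone counts lay in 6 of 8 wells of the shallowest libraries. Egln1 rose in Halofuginone (1.56 ± 0.44, adjusted p = 0.00418), where 1 well reached 205 CPM and the median was 16.4. Bnip3 had 0 counts in 8 of 8 Halofuginone wells. A count of 0 there allows up to 5.45 CPM over the group (3 counts of its summed total, counting error only). The DMSO wells held 27 counts or 13.0 CPM, which is 2.39 times that limit. The counting error of the DMSO counts is left out of this ratio, so it is not a strict lower bound. Aldoc had 0 counts in Torin wells and 9 in DMSO wells, a ratio of 2.41 by the same reckoning, which rests on very few counts.

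Genes of the pathway outside the list were read from a further list of 52 glycolysis and HIF genes, of which 14 were tested. With LPS 2 of the 14 rose and 5 fell, beside 36.1% of all tested genes, and with tBHQ 4 rose and 2 fell, beside 36.4%. Bhlhe41, a transcriptional repressor gene, fell with LPS (-1.28 ± 0.27, adjusted p = 2.68e-05) and was higher in tBHQ than in DMSO (1.91 ± 0.25, adjusted p = 1.05e-10), 2 comparisons that share the DMSO wells. With pGE2, where the background was 11.2%, 3 rose and 1 fell, among them Mxi1, a MAX-binding repressor gene (2.66 ± 0.29, adjusted p = 1.16e-13), and Cited2, whose protein competes with HIF-1 alpha for a coactivator, which fell (-1.44 ± 0.14, adjusted p = 9.15e-17). With Torin 1 rose, Bhlhe41 (3.40 ± 0.23, adjusted p = 2.44e-26), and 1 fell (background 16.7%). With Halofuginone 3 rose and 1 fell (background 40.3%), with BrefA 1 rose and 2 fell (background 17.3%), and with Dexa, at a background of 3.57%, 2 rose, Cited2 (0.59 ± 0.12, adjusted p = 0.000403) and the prolyl hydroxylase gene Egln2 (0.96 ± 0.30, adjusted p = 0.0461). The shares called with Torin, Halofuginone and BrefA were near or below the background. With Caspase-1 1 rose and 0 fell (background 2.9%), and with Tunicamycin, Baflo and ZVAD 0 passed.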

How the data were processed

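Macrophages were grown, treated and lysed as given in the opening, and, per the labels' protocols, transcript 3′ ends were sequenced after a changed form of SCRB-Seq with Nextera. The authors deposited whole-number read counts per gene symbol for 96 libraries, aligned with BWA to mm10, per the submitters' processing notes. The annotation, the BWA version and whether molecular identifiers were used to collapse PCR copies are not stated in the sources used here. Tests used edgeR 4.0.16 in R 4.3.3: filterByExpr on the groups (at a count of 10 in a library of median size, 38.8 CPM), TMM scaling, group and plate in the model, two-sided quasi-likelihood F tests (robust), Benjamini-Hochberg over 4963 genes and a threshold of 0.05. The standard error is the fold change over the root of F. CPM are per 1000000 of the scaled total. There were 15 comparisons. Simulated data with known fold changes were used to check the fit.

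Same-named wells on both plates correlated in their deviations (mean r across 2670 genes 0.16, against -0.0529 for other wells), in 12 of 12 groups. Deviations were taken from the mean of the 4 wells of a group and plate. This pushes the value for other wells below 0 when same-named wells correlate, so it is no independent baseline. The labels do not say whether same-named wells share a culture, so a fit with those wells summed was run. Other alternatives were RLE scaling, DESeq2 1.42.0, no gene filter, no plate term, each plate alone, a replicate block, the compared groups alone, each well letter left out, the Rn45s share as covariate, Rn45s and Lars2 left out, Tunicamycin plate 2 F or 3 wells left out and, chosen after seeing the data, totals of the tested genes. The list's genes, further lists and markers were chosen with earlier results of these data known. The naming rule gives tested members with their values, and further pathway genes by the largest change past the threshold with 30 CPM or more and the same sign on both plates, at most 4 per comparison. Some genes that meet this rule, or are on the marker lists, are not reported here. Promoters are RefSeq windows and coordinates GENCODE M21. Figures used matplotlib 3.10.9 in Python 3.11.15.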

Additional observations from a re-analysis of the deposited data

Results flagged for a closer look

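Of 126 groups of 8 wells checked, at levels of 100 CPM or more, 4 held a well far from the others by Dixon's 95% criterion, where chance gives about 1 in 20. Hk2 in Tunicamycin plate 2 F was at 144 CPM, with the other wells at 345 to 513. Tpi1 in NoStim plate 2 D was at 39.1 CPM, with the others at 77.6 to 139. Pgk1 in tBHQ plate 2 H was at 107 CPM, with the others at 143 to 182. Ldha in DMSO plate 1 E was at 154 CPM, with the others at 232 to 275, and that well stands in every comparison with DMSO.

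Of 375 tests of a plate difference, 1 passed. The fold change of Ldha in Tunicamycin against BrefA was 1.11 on plate 1 and 0.14 on plate 2, a difference of -0.96 by edgeR's interaction term (adjusted p = 0.0127).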

How the results depend on the processing

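The counts of list genes called changed by more than 1.5 times as follows. Plate 2 alone gave 4 for LPS, 0 for Dexa, 4 for Torin, 5 for tBHQ, 4 for pGE2, 0 for Caspase-1, 5 for Halofuginone, 0 for Tunicamycin, 1 for tBHQ against NoStim, 7 for pGE2 against Torin, 1 for Tunicamycin against BrefA and 9 for Halofuginone against Tunicamycin. Plate 1 alone gave 0 for Dexa, 5 for Torin and 0 for BrefA. Both have fewer wells. The Rn45s covariate gave 2 for Dexa and 0 for Caspase-1. It gave 3 for Halofuginone (1 higher, 2 lower) and 5 for Halofuginone against Tunicamycin (1 higher, 4 lower). Those 2 counts include genes that passed with the sign turned. With the compared groups alone fewer than 25 genes of the list were tested. That gave 2 of 18 for Dexa, 3 of 20 for Caspase-1 and 1 of 19 for tBHQ against NoStim. It gave 7 of 14 for Halofuginone and 8 of 14 for Halofuginone against Tunicamycin. Summed wells gave 0 for Caspase-1 and 3 for Tunicamycin. No gene filter and no plate term gave 0 for Caspase-1, DESeq2 gave 2, and without Tunicamycin plate 2 F Tunicamycin had 8. The causes were not tested. With a well letter left out, counts ranged from 0 to 1 for Dexa, 6 to 9 for Torin, 0 to 0 for Caspase-1, 2 to 5 for BrefA, 1 to 4 for Tunicamycin and 4 to 8 for Tunicamycin against BrefA. Reversed values were Slc16a3 in Torin on plate 2 alone (0.0629) and, with the Rn45s covariate, in Halofuginone Hk2 (0.15), Aldoa (-0.59), Pkm (0.13), Pfkfb3 (-0.28), Vegfa (-0.57), Ero1l (-0.88) and Hif1a (-1.50), and in Halofuginone against Tunicamycin Aldoa (-0.37), Pkm (0.16), Pfkfb3 (-1.06), Vegfa (-0.67), Ero1l (-1.15) and Hif1a (-1.81). The replicate block (plate and well letter together) kept 90 of 91 calls, lost 1 and gained 6, and gave 2 for Dexa and 2 for Caspase-1. The labels do not pair groups by letter, and NoStim shares no letters with the rest. Still, 53 of 88 libraries correlated best with their own letter, more than an even share over letters E to H. The mean r was 0.0482 for the same letter in other groups. The main fit holds no letter term. Of 105 calls, 84 were kept with wells summed, 100 under RLE scaling and 99 in DESeq2 (of 104 there). Depth limits the genes near the filter of 39 CPM and the Halofuginone wells, whose libraries were the shallowest.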

Other observations

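Enzymes that border on glycolysis were read from lists of 8 pentose phosphate genes (6 tested) and 30 pyruvate and citric acid cycle genes (20 tested). With LPS, 0 pentose phosphate genes rose and 3 fell, including G6pdx, glucose-6-phosphate dehydrogenase (-0.89 ± 0.23, adjusted p = 0.000691), where 36.1% of all tested genes changed. In tBHQ against DMSO wells 3 rose and 0 fell, beside 36.4% of all tested genes. In Halofuginone wells, where 40.3% of all tested genes changed, 1 rose and 4 fell, with transketolase, Tkt (-1.44 ± 0.33, adjusted p = 0.000173), and phosphogluconate dehydrogenase, Pgd (-1.26 ± 0.33, adjusted p = 0.000998), among those that fell. In pGE2 wells 1 rose and 0 fell (background 11.2%), and in Torin wells 0 rose and 1 fell, Tkt (-0.64 ± 0.22, adjusted p = 0.0268; background 16.7%). With only 6 tested genes, these counts are descriptions. These are edgeR's adjusted p-values.

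Irg1, whose enzyme makes itaconate from a citric acid cycle intermediate, rose with LPS from a mean of 133 CPM in NoStim to 1158 in DMSO (3.11 ± 0.13, adjusted p = 1.18e-46) and stood at 207 CPM in tBHQ (-2.47 ± 0.13, adjusted p = 5.85e-38 against DMSO). In tBHQ it was still above NoStim (0.64 ± 0.14, adjusted p = 0.000588), where Hk2 was below. The citric acid cycle list had 2 genes higher and 4 lower of 20 with LPS, and 1 higher and 7 lower in Halofuginone wells. The share called was below the background of 36.1% with LPS and near the background of 40.3% in Halofuginone wells. The lower genes there included Idh3b, a subunit of isocitrate dehydrogenase (-1.65 ± 0.34, adjusted p = 4.65e-05), and Suclg1 (-1.50 ± 0.42, adjusted p = 0.00326). Halofuginone libraries had the lowest depth and the highest Rn45s share, and their part in this was not tested.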
